A study of Ovis aries with 49 samples.

Results

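In fetal sheep (Ovis aries), 601 single-nucleotide polymorphisms (SNPs) were followed at which the father carried A and the other base was G, or the father carried T and the other base was C. They were taken from the autosomes and were heterozygous in 10 to 14 of the 15 fetuses, with the ram carrying the same base in every such fetus, and each was listed with allele reads in at least 1 fetal tissue. They are 601 of the 19117 SNPs with listed reads in the series and of the 146487 SNPs in the ram genotype lists. They lie in 399 genes on all 26 autosomes. In 305 the change read A to G and in 296 it read T to C, on the strand on which the lists write the bases.

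The fetuses came from Western white-faced ewes mated with Dorset rams. There were 12 ewes and 4 rams, and no reciprocal cross. Every ram allele is therefore paternal and Dorset, and every other allele that is in the genome is maternal. Of the 15 fetuses, 7 were from ewes fed the control diet at 100% of recommended energy, 4 from restricted ewes at 60% and 4 from overfed ewes at 140%, each diet being given from gestation day 30. Brain, kidney and lung were collected at day 135, which gave 45 RNA libraries, and with the DNA of the 4 rams 49 samples. Whole organs were used, so fewer cells of a type and less RNA per cell cannot be told apart, and shares are averages over all cell types of an organ.

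A-to-I editing is carried out by the ADAR enzymes, which deaminate adenosine to inosine in double-stranded RNA. A sequencer reads inosine as G, so an edited site looks like an A to G difference, or T to C where the reads come from the opposite strand. ADAR1 acts in most tissues and ADAR2 is best known in brain, where it recodes transcripts of glutamate receptors and ion channels. A heterozygous A/G or T/C SNP in the genome gives the same reads. Its base share then follows the expression of the parental alleles.

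The name editing-type therefore describes only the kind of base change. All 601 positions had a dbSNP name, as had 100% of the SNPs of the ram lists. The base that the ram did not carry, G or C, was the reference base of the genome at 331 positions (55.1%), and A or T was the reference base at 270. The reverse changes, G to A and C to T, which A-to-I editing does not give, were as frequent: 632 such SNPs met the same conditions. Before any requirement for listed reads there were 1596 editing-type and 1545 reverse-change SNPs, of which 37.7% and 40.9% were listed. Among the 106 genes with several editing-type SNPs, 71 (67.0%) held both an A to G and a T to C change, and among the 88 genes with several reverse-change SNPs 52 (59.1%) held both of theirs. Editing on 1 strand of a gene gives only 1 of the 2 changes, and whether editing has a part in these counts was not tested. The strand, the exon or untranslated region around each site and the sequence context were not analysed here.

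Reads of both alleles were compared as the share of the other base, the percentage of a library's allele reads at a SNP that carried the base the ram does not have. An entry is 1 SNP in 1 library. The deposited lists hold only entries with at least 20.5 reads and at least 70.02% of reads on 1 allele, so no share lies between 30% and 70%, and an unlisted SNP may be balanced or thinly read. The members of the set had 374 entries in brain, 502 in kidney and 737 in lung. That was 5.47% of the 6836 heterozygous cases in brain (95% Clopper-Pearson interval 4.94% to 6.04%), 7.34% in kidney (6.74% to 7.99%) and 10.8% in lung (10.1% to 11.5%), intervals that cover counting error only. The reverse-change SNPs were listed in 9.59%, 11.6% and 17.1% of their cases. The median depth of a brain entry was 29.5 reads, of a kidney entry 34.5 and of a lung entry 36.

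The rule used the number of heterozygous fetuses, so the neighbours of its limits are given as values. Editing-type SNPs heterozygous in 9 fetuses numbered 257 and had the other base on under 50% of reads in 48.0% of entries. At 10 fetuses, just inside the limit, there were 195 SNPs and 62.1% of entries. At the upper limit of 14 fetuses there were 50 SNPs and 53.7%, and outside it, at 15 fetuses, 25 SNPs and 76.7%. By the mean share of each SNP, the other base was the lower at 52.1%, 48.2%, 54% and 64% of SNPs in that order.

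Most of the SNPs were seen rarely. Of the 601, 359 were listed in 1 library, 111 in 2 and 131 in 3 or more. By tissue, 437 were listed in 1 tissue, 120 in 2 and 44 in all 3. At the other end 28 SNPs were listed in 10 or more libraries, the most frequent in 42 of 45, and these 28 gave 590 of the 1613 entries (36.6%). Libraries differed in how many of the SNPs they listed, from 12 to 52 in brain (median 20), 10 to 55 in kidney (median 40) and 35 to 61 in lung (median 48), along with 272 to 1420, 172 to 1276 and 709 to 1993 listed SNPs of any kind. The labelled organs could be checked only through listed SNPs of marker genes: 5 of 8 kidney markers, UMOD among them, were listed in kidney, 2 (AQP1 and SLC12A1) in lung and 0 in brain. Of the 8 brain markers, 2 were listed in each of the 3 organs, MAP2 and NEFM in brain. For lung, 1 of 8 markers (SLC34A2) was listed in lung and 0 elsewhere, 3 of 4 endothelial markers were listed in every organ and 0 of 4 red-cell markers in any. A marker that is not listed is not known to be unexpressed.

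**Figure D1:**
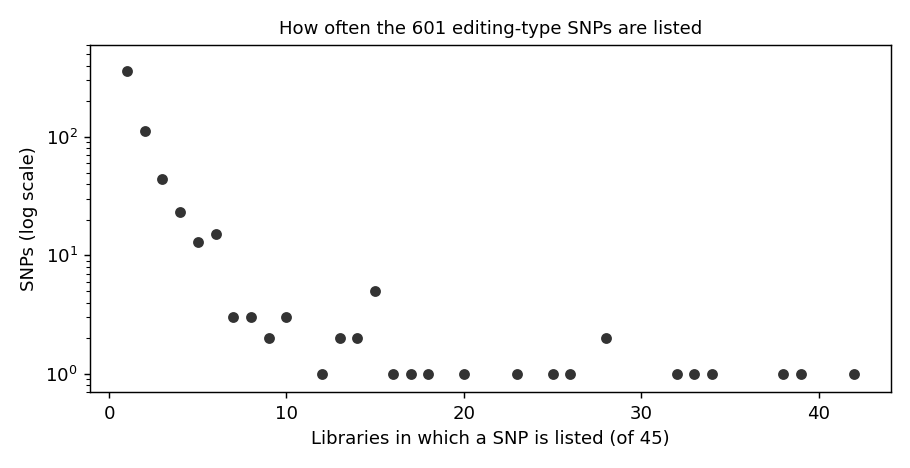
Number of editing-type SNPs (vertical axis, log scale) against the number of the 45 libraries in which they are listed (horizontal axis); each point is a count of SNPs. The points fall from 359 SNPs in 1 library to a thin tail that ends with 1 SNP in 42 libraries.

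The 28 SNPs listed in 10 or more libraries lay in 25 genes. At most of the SNPs listed most often, the share of the other base was alike in all 3 organs. At 2 SNPs of LOC101105348, a protein-coding gene named only by its identifier, the other base prevailed everywhere and was highest in lung. UBB (ubiquitin), H3F3B (the replacement histone H3.3), RBM4B (an RNA-binding protein), MED25 (a subunit of the Mediator complex) and PEG3 (a zinc-finger protein, known in mammals as an imprinted gene expressed from the paternal chromosome) had the other base at about 12% to 19% of reads in every organ. TUBB6, a class of beta-tubulin, stood apart: nearly all reads in kidney and lung carried the ram's base and most reads in brain carried the other. UBB, H3F3B, TUBB6 and RBM4B have near-identical family copies or pseudogenes, and reads could have been split between copies at alignment, so their shares are uncertain to that extent.

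In TUBB6 the SNP lies on chromosome 23 at position 43122291, where the ram and the reference carry T and the other base is C, and it was heterozygous in 14 fetuses with 4 different rams. In the 7 brains listed the share of C was 71.2% at the lowest, 80% at the median and 92.6% at the highest. In the 11 kidneys listed it ran from 0% through a median of 0% to 4.00%, with 4 reads of C against 429 of T in all. In the 14 lungs listed there was 1 read of C against 817.5 of T, in restricted fetus 2, and a share of 0% in the other 13. A count of 0 in a single lung library allows a share of up to 1.96% at the deepest library and 11.3% at the shallowest, counting 3 reads as the limit. No brain overlapped with any kidney or lung.

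The mean share of C was 81.1% ± 7.36 over the brains (SD, n = 7), 0.925% ± 1.39 over the kidneys (n = 11) and 0.0876% ± 0.328 over the lungs (n = 14). Tissue differences were tested with limma on the logit, here the natural log of other-base over ram-base reads with 0.5 read added to each. Every SNP listed in at least 3 fetuses of both organs was tested, and a difference was called at a Benjamini-Hochberg adjusted p under 0.05. The fit held no term for fetus or ewe, so organs of 1 fetus, and littermates, were treated as separate libraries. The TUBB6 SNP was 5.42 logit units higher in brain than in kidney (SE 0.248, adjusted p = 2.22e-18 by limma) and 6.06 higher than in lung (SE 0.236, adjusted p = 4.92e-21 by limma), sizes that depend on the 0.5 read added because kidney and lung lie near 0. Kidney exceeded lung by 0.64, which did not pass (SE 0.207, adjusted p = 0.125 by limma). Within single fetuses brain was the higher in 5 of 5 compared with kidney and in 7 of 7 compared with lung. With differences taken within fetuses, the lowest adjusted p of a member for brain against kidney was 2.17e-06 by limma.

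Of 6 further listed SNPs of TUBB6, none in the set, 3 had similar values and 3 did not. At position 43122080, a G to A change in 10 fetuses, the mean share of the other base was 79.2% ± 6.27 in 5 brains, 1.05% ± 1.49 in 7 kidneys and 0.264% ± 0.557 in 10 lungs. At 43122085, an A to T change, it was 78.0% ± 6.47 in 6 brains, 1.34% ± 1.45 in 7 kidneys and 0.410% ± 0.664 in 10 lungs. At 43122275, a T to C change heterozygous in 9 fetuses and so outside the set by its number, it was 79.9% ± 6.45 in 9 brains, 1.55% ± 1.84 in 7 kidneys and 0.111% ± 0.333 in 9 lungs. G to A and A to T are not changes of A-to-I editing, and the cause of the shares at these SNPs was not tested. A further SNP at 43122445, a T to G change in 5 fetuses, went the other way, with a mean of 7.62% ± 0.882 in 5 brains. At 43122505, an A to G change in 1 fetus, the share was 0.998% in brain and 20.7% in kidney, the reverse of the member. At 43121970, an A to C change in 14 fetuses, it was 29.0% ± 0.914 in 2 lungs, far above the values near 0 at the other SNPs. These SNPs share reads and fetuses and are not separate replicates.

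**Figure D2:**
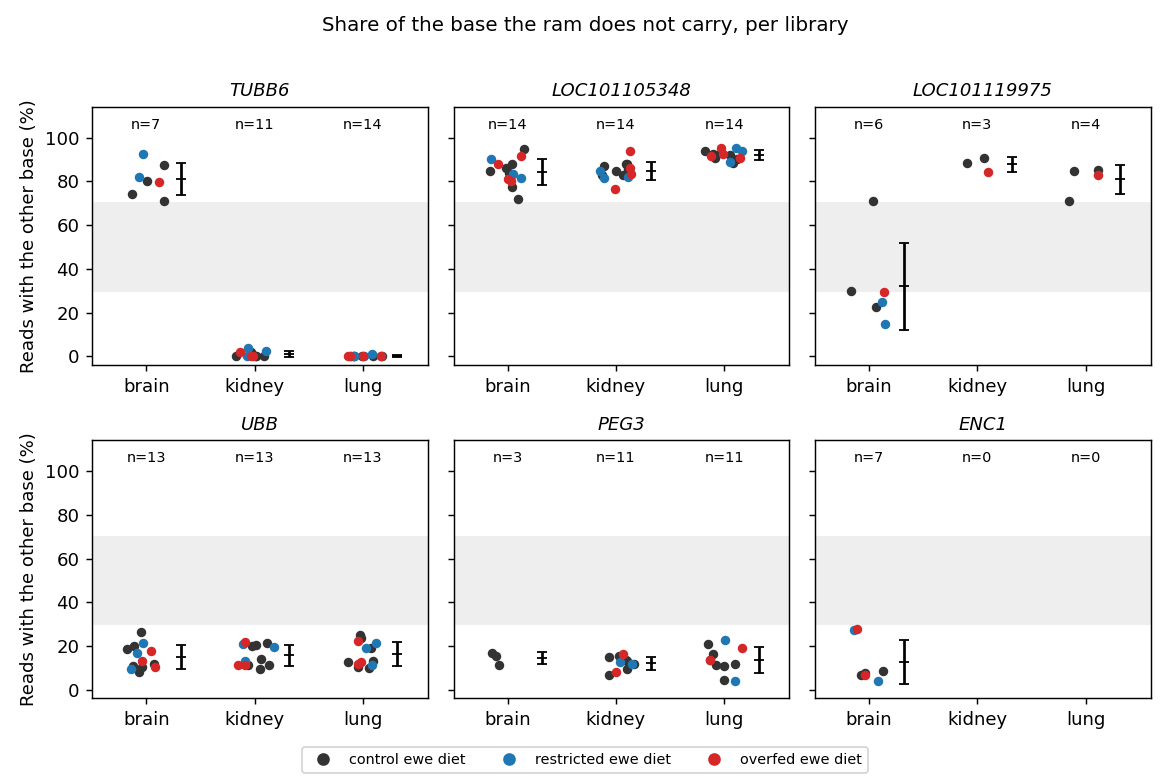
Share of the other base (vertical axis, percent of allele reads) in each library by organ (horizontal axis) at 6 SNPs, each point a library coloured by ewe diet, with mean and SD beside the points and the range that the deposited lists cannot contain in grey. In TUBB6 the 7 brains lie between 71.2% and 92.6% and the kidneys and lungs at or below 4.00%; for LOC101105348 the SNP at position 42004136 is shown.

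LOC101105348, on chromosome 13, held the SNP of the set that was listed most often. At position 42004136 the ram carried the reference base A and the other base was G in 14 fetuses, and the SNP was listed in all 3 organs of all 14. The share of G ran from 72.1% to 94.7% in brain with a median of 84.4%, from 76.5% to 93.9% in kidney with a median of 84.8%, and from 88.4% to 95.4% in lung with a median of 91.9%. The 3 organs overlapped, with lung in the upper part of the range. G was higher in lung than in brain of the same fetus in 11 of 14 fetuses and higher in lung than in kidney in 13 of 14. The mean share of G was 84.5% ± 5.92 for brains, 84.8% ± 4.00 for kidneys and 92.0% ± 2.17 for lungs (SD, n = 14 each). On the logit scale brain was below lung by -0.75 (SE 0.139, adjusted p = 4.44e-05 by limma) and kidney was below lung by -0.73 (SE 0.139, adjusted p = 2.93e-03 by limma).

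The neighbouring SNP at 42004067, again A in the ram and G as the other base, was listed in 12 brains, 13 kidneys and 13 lungs. Its means were 82.8% ± 6.23, 86.6% ± 3.43 and 91.7% ± 2.31. Brain was below lung by -0.85 (SE 0.138, adjusted p = 6.93e-06 by limma) and kidney below lung by -0.56 (SE 0.134, adjusted p = 0.0182 by limma), while brain against kidney did not pass (adjusted p = 0.147 by limma). Lung was the higher organ in 11 of 12 fetuses against brain and in 11 of 13 against kidney. Without control fetus 5 the kidney against lung difference was -0.55 with an adjusted p of 0.0542 in limma, and without restricted fetus 4 it was -0.52 with 0.0515. In control fetuses alone both SNPs of the gene had an adjusted p of 0.328 in limma for kidney against lung, at -0.60 and -0.49.

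LOC101105348 had 18 listed SNPs between positions 42003304 and 42004904, and 3 of them were in the set. The third, at 42004598, was T in the ram and C as the other base and had a mean of 76.7% in 10 lungs, with 75.9% in 1 brain and 71.1% in 1 kidney. Of the 15 SNPs outside the set, 11 had the other base above 70% in every library listed. At 42003402, a T to G change, the mean was 83.6% in 4 brains, 84.3% in 4 kidneys and 92.6% in 4 lungs. At 42003403, another T to G change, it was 82.8% in 3 brains, 82.6% in 3 kidneys and 92.7% in 3 lungs. At 42004115, an A to G change in 3 fetuses, it was 82.5% in brain, 80.9% in kidney and 93.4% in lung. Lung had the highest mean at each of these, and the order of brain and kidney differed between SNPs. A G to A change at 42004722 had lower means in brain and kidney, 23.98% in 3 brains and 40.0% in 7 kidneys, with 71.2% in 4 lungs. A T to C change at 42004807, in 1 fetus, was lowest in lung, with 16.4% in brain, 12.5% in kidney and 4.55% in lung. At 42004603 and 42004904, where the rams carried either base, the 4 lungs ran from 8.20% to 73.8% and from 4.44% to 83.5%.

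LOC101119975, on chromosome 3 at position 136709873, had the other base low in most brains and high in kidney and lung. The ram carried T, and the other base, C, is the reference base. In brain the share of C was 14.8% at the lowest, 27.1% at the median and 71.1% at the highest of 6 libraries. In kidney it was 84.2% in overfed fetus 4, 88.3% in control fetus 3 and 90.9% in control fetus 2. In lung it was 71.1% in control fetus 6, 82.9% in overfed fetus 3, 84.8% in control fetus 2 and 85.2% in control fetus 3. Of the 6 brains, 5 lay below every kidney and lung, and the sixth, that of control fetus 2, was just below the lowest lung.

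The difference was -2.73 logit units for brain against kidney (SE 0.431, adjusted p = 3.67e-04 by limma) and -2.28 for brain against lung (SE 0.384, adjusted p = 3.63e-04 by limma). It rests largely on different fetuses in the organs. The 3 fetuses of 1 ram gave 3 entries, at 14.8% to 29.5%, all of them brains. Every kidney and lung came from fetuses of the other ram, so organ and ram cannot be told apart at those brains. Control fetus 2 was the only one listed in all 3, with 71.1% in brain, 90.9% in kidney and 84.8% in lung. Without any 1 of control fetus 2, control fetus 3 and overfed fetus 4 there were too few kidneys for the brain against kidney test, and a comparison within fetuses could not be made for either organ. The other listed SNP of the gene, a C to T change at 136710905 in 2 fetuses, ran the other way, with the other base low in every organ and highest in brain: 16.9% ± 2.26 in 2 brains, 6.99% ± 1.90 in 2 kidneys and 8.22% ± 0.188 in 2 lungs.

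Over the whole set, brain against kidney could be tested at 15 members and 2 were called, TUBB6 and LOC101119975, 1 in each direction. Among all 406 SNPs tested, 19.2% were called, 16.7% with the other base higher in brain and 2.46% with it lower. Brain against lung was tested at 15 members and 4 were called, TUBB6 higher in brain and LOC101119975 and both SNPs of LOC101105348 lower. The background was 26.8% of 422 SNPs, of which 20.4% of those tested were higher in brain and 6.4% lower. Kidney against lung was tested at 30 members and 2 were called, both in LOC101105348 and both lower in kidney, against 1.23% of 649 SNPs, with 0.308% higher and 0.924% lower in kidney. The 2 calls are neighbouring SNPs of 1 gene. The brain against kidney count was 1 without control fetus 2, control fetus 3 or overfed fetus 4, and the kidney against lung count was 1 without control fetus 5 or restricted fetus 4. For the comparisons with brain the members' share of calls was near or below the background.

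The median difference over the members tested was -0.02 logit units for brain against kidney, 0.02 for brain against lung and -0.03 for kidney against lung. Over all SNPs tested the medians were 0.13, 0.22 and 0.05. At an unadjusted p under 0.05 there were 3, 5 and 5 members, of 15, 15 and 30 tested, beside 121 of 406, 172 of 422 and 70 of 649 SNPs of all kinds. A further member in that range was LOC101116226 (TCAF1 in RefSeq, a TRP channel-associated factor) on chromosome 4 at 106434588, with 15.1% ± 7.01 of G in 5 brains and 9.80% ± 5.23 in 13 lungs (adjusted p = 0.118 by limma). RBM4B had 13.9% ± 3.30 in 11 kidneys and 16.7% ± 2.17 in 12 lungs (adjusted p = 0.361 by limma).

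Within a fetus the organs mostly agreed on which base was the more frequent. Among 28 SNPs listed in brain and kidney of the same fetus, 98 of 105 pairs lay on the same side of 50%. The 7 exceptions were 5 in TUBB6, 1 in FEM1C, a substrate receptor of a ubiquitin ligase, and 1 in PIGT, a subunit of the GPI transamidase. For brain and lung it was 113 of 121 pairs from 32 SNPs, the exceptions being 7 in TUBB6 and 1 in LOC105601865. For kidney and lung it was 199 of 200 pairs from 52 SNPs, with 1 exception in SUSD4, a complement regulator. Without TUBB6 the agreement was 98.0%, 99.1% and 99.5%. The reverse-change SNPs without TUBB6 gave 99.0%, 99.6% and 100%. Since the lists leave out intermediate shares, a pair can differ in side only by a large change of share. Pairs also repeat a few SNPs over fetuses. Of the 105 brain and kidney pairs, 2 SNPs of LOC101105348 gave 14 and 12 and UBB gave 13.

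The size of the share followed the same pattern. Over the same pairs, the median difference between organs of 1 fetus was 0.75 percentage points for brain minus kidney, with quartiles of -3.28 and 5.17. It was -0.31 for brain minus lung and -0.48 for kidney minus lung. These medians include TUBB6, and without it they were -0.494, -0.959 and -1.05 in the same order. Reverse-change SNPs had medians of 3.48, 4.77 and 0.168, and without TUBB6 3.01, 4.33 and 0.225. No test was made of the difference between the sets.

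**Figure D3:**
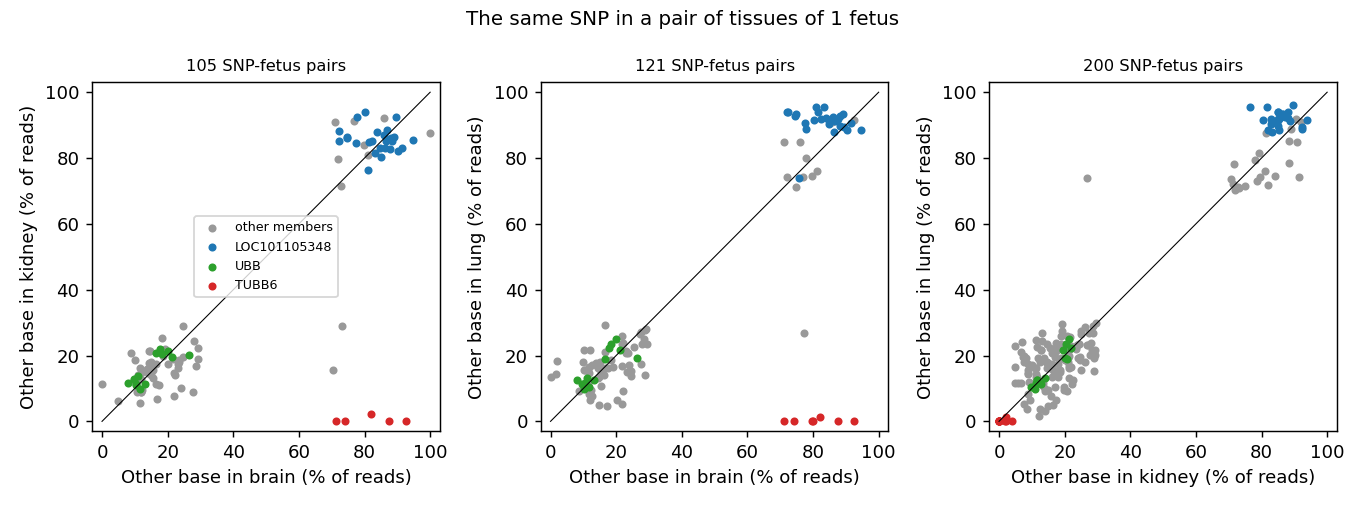
Share of the other base (percent of allele reads) of a SNP in 1 organ against another organ of the same fetus, for 105, 121 and 200 pairs; each point is 1 editing-type SNP in 1 fetus and the line marks equal shares. Points gather near the line in the lower left and upper right corners, and those of TUBB6 lie at the lower right in both comparisons with brain.

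UBB had the deepest coverage of the set, 233 to 1487.5 reads a library. The SNP lies on chromosome 11 at 32765920, with A in the ram and in the reference and G as the other base, and was listed in all 3 organs of its 13 heterozygous fetuses. The share of G ran from 8.06% to 26.4% in brain, 9.68% to 21.9% in kidney and 9.94% to 24.9% in lung, with medians of 13.2%, 13.9% and 13.3%. The organs overlapped throughout, with means of 15.0% ± 5.53, 15.8% ± 4.78 and 16.3% ± 5.54 (SD, n = 13 each). No organ contrast passed, the lowest adjusted p being 0.652 by limma.

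The spread at the UBB SNP lay between fetuses. In 7 fetuses all 3 organs were between 8.06% and 13.9%, and in the other 6 all 3 organs were between 16.6% and 26.4%, with a gap in the fetus means from 12.7% to 18.8%. Both ranges held fetuses of all 3 ewe diets. By ram, the means of 5 fetuses of 1 ram ran from 12.7% to 22.1% and those of 7 fetuses of another from 10.4% to 21.9%, with medians of 20.8% and 11.1%. Of the former ram's 5 fetuses 4 lay in the high range, and of the latter ram's 7 fetuses 6 lay in the low range. The single fetus of the third ram lay in the high range. Fetus means of RBM4B had an SD of 1.95 percentage points, those of H3F3B 1.83, of MED25 4.28 and of LOC101116226 4.33, against 5.04 at UBB. The split was noticed in these values and not tested.

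**Figure D4:**
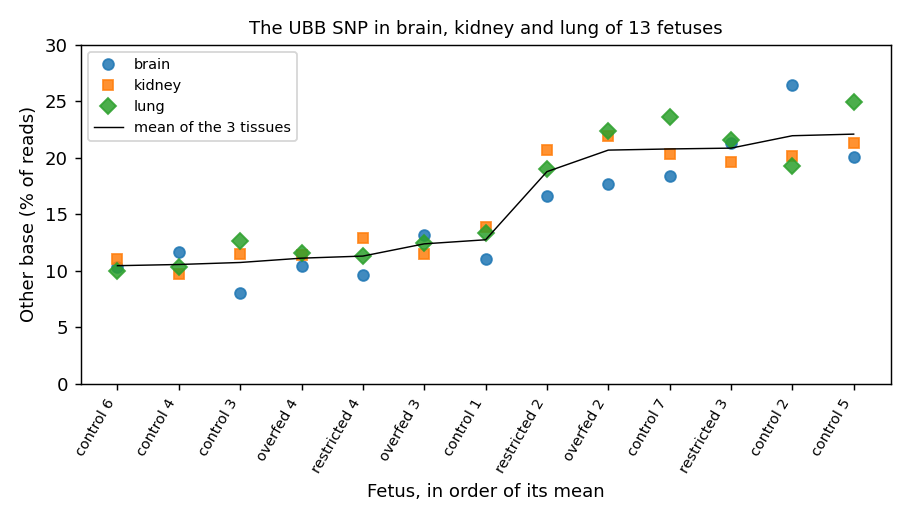
Share of the other base at the UBB SNP (vertical axis, percent of allele reads) in brain, kidney and lung of the 13 heterozygous fetuses, ordered by their mean (line). The 7 fetuses on the left lie at or below 13.9% in all 3 organs and the 6 on the right at or above 16.6%.

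The other frequent SNPs with a low share of the other base differed less between fetuses. H3F3B, on chromosome 11 at 54767953, carried T in the ram although C is the reference base, and had 16.7% ± 6.40 of C in 8 brains, 16.9% ± 2.52 in 10 kidneys and 16.5% ± 2.48 in 10 lungs. RBM4B, on chromosome 21 at 43895300, had 13.9% ± 2.27 of G in 10 brains. LOC105602050, on chromosome 14 at 1145103, had 22.5% ± 3.94 of C in 10 brains, 21.1% ± 4.82 in 11 kidneys and 22.4% ± 4.19 in 13 lungs. These values overlapped between organs at each of the SNPs.

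MED25, on chromosome 14 at 55102954, had 18.8% ± 5.19 of C in 4 brains, 14.7% ± 4.64 in 10 kidneys and 14.4% ± 6.85 in 12 lungs. PEG3, on chromosome 14 at 60912722, had 14.6% ± 2.71 of C in 3 brains, 12.1% ± 3.02 in 11 kidneys and 13.6% ± 6.09 in 11 lungs. In kidney the PEG3 SNP had a median of 200.5 reads and a range of 6.67% to 16.2%. Reads of the base the ram does not carry were thus present in each of the 11 kidneys. Whether they came from the maternal allele was not tested. LOC101107891, on chromosome 14 at 57234235, had 13.96% ± 5.06 of G in 5 brains, 17.04% ± 3.87 in 7 kidneys and 11.5% ± 5.69 in 11 lungs.

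A high share of the other base was less frequent among these SNPs. LOC106990117, on chromosome 20 at 26838105, had 89.2% ± 4.67 of G in 2 brains, 89.99% ± 1.65 in 4 kidneys and 85.8% ± 6.80 in 9 lungs. LOC105601865, on chromosome 2, was listed mainly in brain. At 11240775 G had 89.0% ± 3.66 in 8 brains and 70.8% in the 1 kidney listed, that of overfed fetus 2. At 11240728, where C is the other base, the share was 81.1%, 87.8% and 88.5% in 3 brains and 28.8% in 1 lung, that of control fetus 6.

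ENC1, which encodes a neuronal actin-binding protein of the kelch family, was listed in brain only. Its SNP on chromosome 16 at 6964346 had 4.08% of G at the lowest, 7.43% at the median and 27.9% at the highest of 7 brains. The 2 high brains were those of overfed fetus 2 at 27.9% and restricted fetus 2 at 27.1%, and the other 5 lay at or below 8.51%.

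Of 48 genes with transcripts known in mammals to be edited, 45 had a SNP in the ram lists, 27 had a listed SNP of some kind, and 3 had a member of the set. The list of genes was chosen with earlier results of these data known. COPA, a coatomer subunit, had a SNP on chromosome 1 at 109505192 with 72.9% of the other base in the brain of overfed fetus 3, 71.4% in its kidney and 70.3% in the kidney of restricted fetus 3. CYFIP2, which regulates actin through the WAVE complex, had a SNP on chromosome 5 at 66211606 with 71.0% in 1 brain and 79.2% in 1 kidney. NEIL1, a DNA glycosylase of base excision repair, had a SNP on chromosome 18 at 32339098 with 95.1% in the brain of control fetus 6 and 85.7% in that of overfed fetus 1. In all 3 genes every entry had the other base above the ram's, from 3 entries in COPA and 2 each in CYFIP2 and NEIL1. Over all 601 members the other base was the lower by mean share at only 46.8% of SNPs. Whether any of these positions is a known edited site was not analysed here, and none of the 3 could be tested between organs.

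Over all 1613 entries the other base was the lower one in 935 (58.0%), in 54.0% of entries in brain, 58.4% in kidney and 59.7% in lung. Reverse-change SNPs had 25.3% and the SNPs with other single changes 25.2%. The other single changes differed by the ram's base. With A in the ram, 54.0% of entries (A to C) and 61.1% (A to T) had the lower other base. With T it was 38.4% (T to A) and 66.1% (T to G). With C it was 19.2% (C to A) and 19.5% (C to G). With G it was 20.6% (G to C) and 16.4% (G to T). The sets lay closer together when each SNP was counted once: by its mean share, the other base was the lower in 46.8% of editing-type, 44.6% of reverse-change and 39.1% of other SNPs. Among the entries of SNPs listed in at most 5 libraries it was the lower in 47.4%, 47.5% and 41.6%. Editing-type SNPs heterozygous in 1 to 9 fetuses had 50.7% of entries with the lower other base. These shares are descriptions, because entries of a SNP, a gene and a fetus share their source.

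The reference base moved with these shares. Where the ram carried the reference base, the other base was the lower in 62.1% of editing-type entries, 19.7% of reverse-change entries and 22.5% of entries with other changes. Where the ram carried the alternative base the figures were 51.8%, 54.2% and 48.1%. Among the 28 SNPs listed in 10 or more libraries, the other base was the lower in every library at 16, the higher in every library at 7, and on both sides at 5. The ram carried the reference base at 13 of the 16 and at 7 of the 7. Among the 131 SNPs in 3 or more libraries the counts were 62, 45 and 24. The part of alignment to the reference in these shares was not tested.

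**Figure D5:**
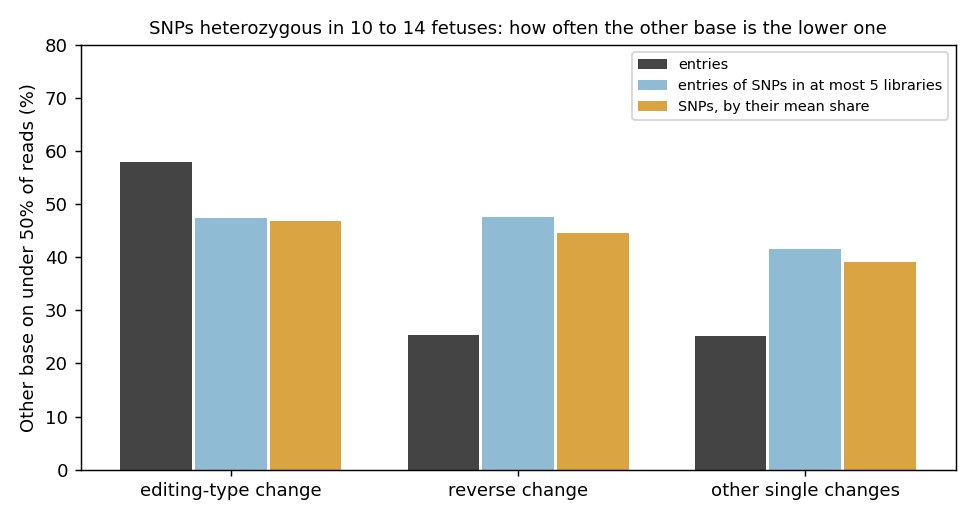
Percentage with the other base on under 50% of reads (vertical axis) for editing-type, reverse-change and other single-change SNPs heterozygous in 10 to 14 fetuses, counted over entries, over entries of SNPs in at most 5 libraries, and over SNPs by their mean share. Over entries the bars stand at 58.0%, 25.3% and 25.2%, and over SNPs at 46.8%, 44.6% and 39.1%. The bar of other single changes pools entry shares from 16.4% (G to T) to 66.1% (T to G).

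SNPs that could be tested for their side in at least 3 fetuses of an organ nearly all kept to it, as the lists, which hold no balanced entries, favour. In brain 24 of 24 members were called by limma, 7 with the other base higher and 17 lower, against a background of 94.9% of all 683 SNPs tested, 61.2% higher and 33.7% lower. In kidney 36 of 39 were called, 12 higher and 24 lower, with a background of 92.6%, 58.3% higher and 34.3% lower. In lung 66 of 68 were called, 22 higher and 44 lower, with a background of 92.9%, 55.3% higher and 37.6% lower. SLC25A40, a mitochondrial carrier on chromosome 4, was among those not called in kidney: its 3 kidneys had 0%, 16.4% and 93.7%.

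Entries with under 10% of the other base numbered 15 in brain, 40 in kidney and 45 in lung, in 9, 15 and 13 genes. TUBB6 gave 11 of the 40 in kidney and 14 of the 45 in lung, LOC101116226 8 and 7, and ENC1 5 of the 15 in brain. Entries above 90% numbered 11, 8 and 27, in 7, 5 and 4 genes, and LOC101105348 gave 21 of the 27 in lung. Of 23 entries with no read of the other base, 20 were in TUBB6.

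Several members often lay in the same gene, and those listed together mostly lay on the same side. In 156 combinations of a fetus, an organ and a gene with several listed members, 148 had all of them on the same side of 50%, in 51 genes in all. Members of a gene in 1 library share a fetus and can share reads, and the lists hold no balanced entries. They are not separate replicates. TGM2, which encodes transglutaminase 2, a cross-linking enzyme of the matrix, had the most, 12 SNPs over 24838 bases of chromosome 13, 6 of each change. All 30 entries of TGM2, from 13 libraries of 9 fetuses, had the other base low, from 7.84% to 29.9%. DZIP1L, a ciliary zinc-finger gene on chromosome 1, had 6 SNPs with the other base high in all 17 entries, from 70.3% to 89.8%.

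ADSSL1, the muscle form of adenylosuccinate synthase on chromosome 18, had 5 SNPs, all T to C, and 34 of 35 entries with the other base low. ITIH5, an inter-alpha-trypsin inhibitor heavy chain on chromosome 13, had 6, all A to G, but with 6 entries low and 7 high. PLXNA2, a semaphorin receptor on chromosome 12, had 8 SNPs with 4 entries low and 7 high. IRGQ, on chromosome 14, had 6 SNPs with 5 low and 1 high, and TPCN1, an endolysosomal ion channel on chromosome 17, had 6 with 3 low and 3 high. The 5 SNPs of LOC105601865 within 342 bases had 13 low and 16 high.

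Ewe diet was compared with the ewe as the unit, littermates being averaged to 12 ewes. Littermates were read from the number in each description, by which 1 control ewe had 3 fetuses and another had 2, whereas the labels speak of 3 sets of control twins, so the control grouping is uncertain. No member was called in any of 6 contrasts, and 0 were called among all SNPs tested, so the background was 0.0% in each. Restricted against control was tested at 9 members in brain, 14 in kidney and 22 in lung, and overfed against control at 9, 14 and 27. At an unadjusted p under 0.05 there were 0 members in each contrast, and 3 to 14 among the 165 to 410 SNPs of all kinds. The widest member difference was 1.87 logit units at SERPINA14 in kidney, restricted above control, from 2 ewes of each diet (SE 0.974, adjusted p = 0.947 by limma). At UBB the difference from control was 0.08 in brain (SE 0.343), 0.22 in kidney (SE 0.271) and 0.14 in lung (SE 0.283) for restricted ewes. For overfed ewes it was -0.06 (SE 0.336), -0.02 (SE 0.272) and -0.01 (SE 0.280) in the same order. Each of these standard errors is larger than its difference, which does not show that the diets act alike.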

How the data were processed

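RNA was sequenced from 45 fetal libraries and DNA from 4 rams. The deposited values are expected counts, estimated reads per parental allele at each SNP that the authors averaged over alignments to a reference and an alternative genome, per the series text; 65.3% of entries were not whole on both alleles. The submitters' processing notes name HISAT2 2.0.5 and Trimmomatic 0.33 beside SAMtools and Picard; the part of each tool, the variant caller and the genome build are not given in the sources used here. RNA was poly(A)-selected, per the labels' protocols. Gene names come from the deposited lists; chromosome names were read by matching those genes to RefSeq (ARS-UI_Ramb_v3.0), whose positions were not used. Of 26 LOC-named member genes, 18 were found there.

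The members and gene lists were chosen with earlier results of these data known. Shares were taken from both alleles' reads without rounding. limma 3.58.1 in R 4.3.3 was run as two-sided moderated tests on listed SNPs of all kinds. Each organ contrast had its own fit over the 45 libraries, on the SNPs that could be tested in it. There was 1 fit per organ for the side, and diet used 12 ewes (at least 2 ewes of both diets). The steps were also run on simulated reads. These had no effect of fetus and could be balanced, so they do not show how the fits behave on the real lists. Replicates of an organ are separate fetuses. Numbers on libraries mark the same fetus in each organ, so they pair the samples, though the organ fit did not use this pairing. Deviations of the same fetus correlated across SNPs with medians of 0.317, 0.399 and 0.325 for the 3 pairs of organs. Members were named if called in an organ contrast, among the 10 most listed, in a gene of the edited list, at the 3 lowest or highest mean shares of an organ, in the 8 genes with most members, or called for diet; 19 members and 8 genes met this, and other genes named were chosen after their values were seen. Sequences and strands were not analysed here.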

Additional observations from a re-analysis of the deposited data

Results flagged for a closer look

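Of 59 groups of values in which 1 library could be tested for lying apart, 4 did, and chance alone gives about 1 in 20. In lung of overfed fetuses, fetus 3 listed 42 of the editing-type SNPs and the other 3 listed 59 to 60. At the LOC101105348 SNP at 42004067, kidney of overfed fetus 1 had 92.4% of the other base and the other 3 kidneys of that diet 85.1% to 86.2%. At the TUBB6 SNP, kidney of control fetus 3 had 1.89%, which is 1 read, against 0% in the other 4 control kidneys, and lung of restricted fetus 2 had 1.23%, likewise 1 read, against 0% in the other 3.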

How the results depend on the processing

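Of 2483 values for named members recomputed under another setting, 2474 kept their direction and their side of the threshold, 9 fell below it and 0 changed direction. Of the 9, 5 were the side of LOC101119975 in brain with 1 of 5 fetuses left out, at logits of -0.64 to -0.81 and adjusted p of 0.0612 to 0.0866 by limma; the others are the kidney against lung values of LOC101105348 given above.

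The number of members called for brain against kidney, 2 as reported, was 1 with at least 5 fetuses an organ, 4 with at least 2, 1 in control fetuses only and 1 with the replicate block, a comparison within fetuses in which LOC101119975 could not be fitted; it was 1 to 2 leaving out each fetus. For brain against lung, 4 as reported, it was 9 with SNPs heterozygous in 8 to 14 fetuses, 3 with the replicate block and 4 leaving out each fetus. For kidney against lung, 2 as reported, it was 0 in control fetuses only and 1 to 2 leaving out each fetus. Side calls, 24, 36 and 66 in brain, kidney and lung, were 14, 19 and 31 with at least 5 fetuses, 40, 61 and 102 with 8 to 14 heterozygous fetuses, 14 in brain with at least 30 reads, and 15 and 24 in kidney and lung with 12 to 14 fetuses, settings that change how many SNPs are tested; leaving out each fetus they were 20 to 24, 29 to 36 and 57 to 65. Diet calls stayed at 0, also with the replicate block. With at least 30 reads the listed share of cases was 2.59%, 4.51% and 6.73%. Depth limits the set at its floor of 20.5 reads, and unlisted cases have no value.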
